A study of Homo sapiens with 8 samples.

Results

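The genes described here are 10 chemokines and chemokine receptors that B cells make or use, out of 63967 gene labels in the deposited table, of which 18143 could be placed beside their values. They are the chemokines CXCL9, CXCL10, CXCL11, CCL17 and CCL22 and the receptors CCR6, CCR7, CXCR3, CXCR4 and CXCR5. They were chosen by symbol, and the values of each were read from the row in which they stand in the table, which lay between 0 and 11 rows below the row of the label. The rows were selected on read levels summed over all 8 libraries, so no difference between groups entered them, but the list of genes was drawn up with earlier results of these data known. The p-values below are therefore descriptions of these libraries and not independent evidence.

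Raji is a Burkitt lymphoma cell line, a malignant germinal center B cell, and is sensitive to the anti-CD20 antibody rituximab. Raji-4RH is its rituximab-resistant derivative, obtained by exposing Raji cells to the antibody again and again. Both lines were cultured for 24 h with DMSO, the solvent, or with 3 μM chidamide, an inhibitor of histone deacetylases, and RNA was sequenced from 2 replicate libraries in each of the 4 groups. The labels name no other cell type in the cultures and no engineered allele in any group, and the sources do not say whether Raji-4RH is 1 clone. Library totals ranged from 13991697 reads in Raji-4RH chidamide replicate 1 to 21193441, and each of the 8 libraries was nearest to its own replicate. Nothing in the labels says that replicates came from separate cultures, so p-values measure the spread between these libraries, which may be technical. The B cell markers CD22, CD79A, CD79B, PAX5, CD74, BLK, FCRLA and CR2 all reached 1 FPKM in 2 or more libraries. CR2 did so in Raji only, at 32.4 FPKM untreated and 126 FPKM treated, beside 0.103 and 0.114 FPKM in Raji-4RH.

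Chemokines are small secreted proteins that guide migrating leukocytes through G protein-coupled receptors. CXCL9, CXCL10 and CXCL11 are interferon-inducible ligands of CXCR3, which is found mainly on activated T cells and NK cells, and CCL17 and CCL22 are ligands of CCR4, found on helper and regulatory T cells. The receptors serve the B cell itself: CXCR4 follows CXCL12 to the bone marrow and the germinal center dark zone, CXCR5 follows CXCL13 into the follicle, CCR7 follows CCL19 and CCL21 to the T cell zone, and CCR6 follows CCL20.

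The promoters of 4 chemokines are printed here, those of the 3 CXCR3 ligands and of the more abundant CCR4 ligand, because interferon-regulated factors and NF-kB are the known routes to these genes. Each sequence holds 250 bases before and 50 bases after the RefSeq start on GRCh38.p14, 5′ to 3′ on the strand of the gene, and 8 of the 10 genes had an entry in the promoter table. Capitals mark matches, on either strand, to 3 patterns: the interferon-stimulated response element, searched as GAAA followed after 2 bases of any kind by GAAA, the gamma-interferon activated site TTCNNNGAA, and the NF-kB site, searched as GGGA, 2 bases of any kind, T, 1 base of any kind and CC.
CXCL10, chr4:76023448-76023747, minus strand: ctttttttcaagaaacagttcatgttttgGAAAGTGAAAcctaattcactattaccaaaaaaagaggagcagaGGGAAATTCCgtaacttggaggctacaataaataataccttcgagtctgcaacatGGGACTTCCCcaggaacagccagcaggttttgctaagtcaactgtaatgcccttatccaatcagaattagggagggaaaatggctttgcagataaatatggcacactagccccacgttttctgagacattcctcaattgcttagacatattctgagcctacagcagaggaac
CXCL9, chr4:76007460-76007759, minus strand: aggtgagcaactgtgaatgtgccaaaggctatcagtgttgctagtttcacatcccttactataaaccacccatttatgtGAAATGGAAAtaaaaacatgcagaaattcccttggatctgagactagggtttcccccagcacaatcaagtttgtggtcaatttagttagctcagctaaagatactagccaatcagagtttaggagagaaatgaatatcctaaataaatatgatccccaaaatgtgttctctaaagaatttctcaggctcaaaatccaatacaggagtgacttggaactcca
CXCL11, chr4:76036021-76036320, minus strand: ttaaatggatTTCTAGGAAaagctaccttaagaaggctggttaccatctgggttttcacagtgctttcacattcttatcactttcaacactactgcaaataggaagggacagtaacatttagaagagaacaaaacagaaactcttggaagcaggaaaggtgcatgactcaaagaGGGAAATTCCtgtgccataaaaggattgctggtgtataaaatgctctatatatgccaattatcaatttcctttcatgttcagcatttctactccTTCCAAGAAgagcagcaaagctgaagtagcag
CCL22, chr16:57358533-57358832, plus strand: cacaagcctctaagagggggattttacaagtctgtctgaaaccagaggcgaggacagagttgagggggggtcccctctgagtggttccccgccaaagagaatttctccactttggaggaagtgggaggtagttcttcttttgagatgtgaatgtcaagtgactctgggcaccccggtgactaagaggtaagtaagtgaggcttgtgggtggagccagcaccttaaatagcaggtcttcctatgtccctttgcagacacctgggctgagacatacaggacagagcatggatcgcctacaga
The CXCL9 window held 1 interferon-stimulated response element, starting at base -171, and the CXCL10 window held 1 at -221. CXCL10 also held NF-kB matches at -177 and at -122, the latter on both strands over the same bases. CXCL11 held gamma-interferon activated sites at -240 and at 18 and an NF-kB match at -76. Of the receptors, CCR6 held an interferon-stimulated response element at -124 and gamma-interferon activated sites at -227 and -189, and CXCR3 held an NF-kB match at -76 on the other strand. None of the 3 letter patterns was in the windows of CCL22, CXCR4 or CXCR5. Among 35116 promoters of this length, 3.57% held the interferon-stimulated response element, 7.66% the gamma-interferon activated site and 4.93% the NF-kB pattern. These matches are letters in a window and were not measured as binding sites.

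Levels below are in FPKM, the reads of a gene scaled to its length and to the total of the library, so that genes can be compared with each other. Changes are differences of log2(FPKM + 1) between group means, tested with limma in 1 fit over the 8 libraries, with p-values adjusted over the 10710 genes whose level was 1 FPKM or more in 2 or more libraries. The added 1 shrinks the change of genes with low levels, so the ratio of reads per library total is given beside it, with an exact 95% interval that covers counting error only. Of the 10 genes, 7 passed the filter on low levels, while CXCL11, CCR6 and CXCR3 did not. CXCL9 and CCL17 reached 1 FPKM in the Raji chidamide libraries only, so they could enter the test only through the group in which they were high.

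**Figure D1:**
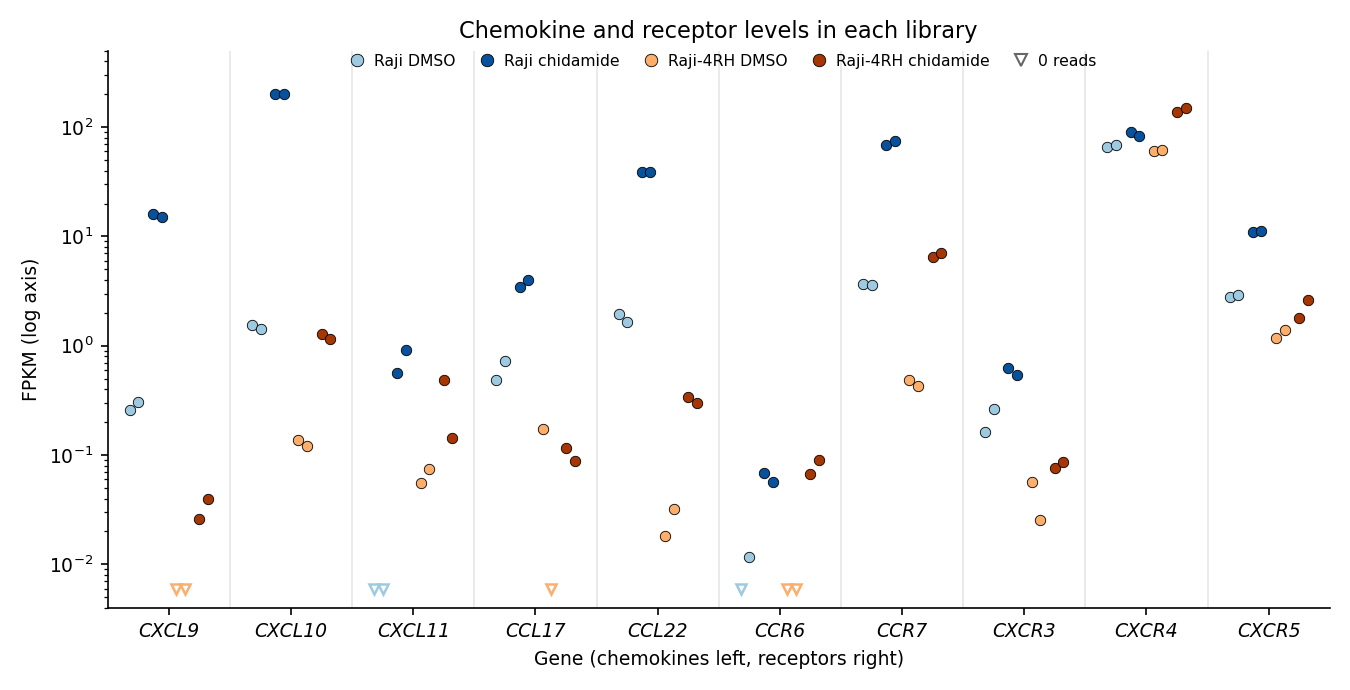
Level of each gene in every library, in FPKM on a log axis, with 2 points per group and open triangles at the bottom for libraries with 0 reads. The chidamide-treated Raji libraries hold the highest CXCL10 levels, 199 and 200.1 FPKM, and CXCR4 is the only one of the 10 genes above 60 FPKM in all 8 libraries.

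After chidamide all 7 tested genes were higher in Raji cells, where 31.5% of all genes tested were called higher, 28.5% lower and 60% in either direction. In Raji-4RH cells 5 of the 7 were higher, none was lower and 2 were not called, where 43.3% of all genes tested were called higher, 31.6% lower and 74.9% in either direction. With so many genes called, these counts say little by themselves, and the sizes below carry the description. With quantile normalization 3 of the 7 were called in Raji-4RH (CXCL10, CCR7 and CXCR4). The ligands CXCL9, CXCL10, CCL17 and CCL22 ended far higher in Raji than in Raji-4RH. CCR7 rose strongly in both lines, and CXCR4 was the one tested gene of the 10 with the larger rise in Raji-4RH.

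CXCL10, on chromosome 4 from 76021117 to 76023497 (GRCh38, minus strand, ENSG00000169245), lies within an intron of ART3, a gene on the other strand. It stood at 1.55 and 1.44 FPKM in Raji DMSO and at 199 and 200.1 FPKM in Raji chidamide, where it ranked 125 among the 18143 placed genes. In Raji-4RH it stood at 0.136 and 0.12 FPKM with DMSO and at 1.28 and 1.15 FPKM with chidamide. The treated Raji-4RH libraries thus ended below the untreated Raji libraries, with 46 reads over the group against 70. This pair was not tested, and no interval was computed for it. None of the 4 groups overlapped. The rise in Raji was 6.33 on the log2 scale (SE 0.0575, limma adjusted p = 3.3e-10) and a 134-fold ratio of reads (95% interval 106 to 172). In Raji-4RH it was 0.97 (limma adjusted p = 1.2e-06), and the reads rose 9.45-fold (4.03 to 27.1) from 6 to 46 over the 2 libraries of a group. With quantile normalization the Raji-4RH rise was 0.20 (limma adjusted p = 0.0242). The response differed between the lines by -5.36 (limma adjusted p = 2.2e-08), and the voom fit on reads, which adds no FPKM, gave -4.0 (adjusted p = 1.5e-04).

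CXCL9, a second CXCR3 ligand, lies beside it on chromosome 4 from 76001275 to 76007488 on the minus strand. It had 14 and 17 reads in Raji DMSO (0.259 and 0.308 FPKM) and 909 and 859 reads in Raji chidamide (16.1 and 15.1 FPKM). In Raji-4RH it had 0 reads in both DMSO libraries and 1 and 2 reads after chidamide. Reads were therefore plentiful in a single group, and no fold is given for Raji-4RH, where the counts were at or under 3 over the group. The rise in Raji was 3.69 on the log2 scale, or 54.9-fold in reads (38.5 to 81.1). The value in Raji-4RH was 0.05 (limma adjusted p = 0.497), and the difference between the lines was -3.64.

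CXCL11, the third CXCR3 ligand, on chromosome 4 from 76033682 to 76041415, stayed under the filter. It had 0 reads in both Raji DMSO libraries, 22 and 36 in Raji chidamide, 2 and 3 in Raji-4RH DMSO, and 13 and 5 in Raji-4RH chidamide. With untreated Raji set to 3 reads over the group, CXCL11 was 18.6-fold higher in treated than in untreated Raji cells. The exact interval, from the 0 reads counted, began at 14.7-fold. In Raji-4RH the ratio of CXCL11 was 4.44 (1.59 to 15.3). Unlike CXCL9 and CXCL10, its reads in treated Raji-4RH were within a few fold of those in treated Raji cells, at a ratio of 0.397 (0.22 to 0.683). The summed level of the 3 ligands was 1.81 and 1.74 FPKM in Raji DMSO, 215.8 and 216.1 in Raji chidamide, 0.192 and 0.195 in Raji-4RH DMSO, and 1.79 and 1.34 in Raji-4RH chidamide.

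CCL22, on chromosome 16 from 57358772 to 57366190 on the plus strand, was the more abundant CCR4 ligand. It stood at 1.94 and 1.66 FPKM in Raji DMSO, at 38.6 and 38.7 FPKM in Raji chidamide, at 0.0182 and 0.0322 FPKM in Raji-4RH DMSO and at 0.342 and 0.297 FPKM in Raji-4RH chidamide. All 4 groups were apart, in the same order as for CXCL10. The rise in Raji was 3.83 on the log2 scale (limma adjusted p = 1.1e-08), or 21.5-fold in reads (18.7 to 24.8). In Raji-4RH it was 0.36 (limma adjusted p = 9.4e-04), and the reads rose from 3 to 30 over the group, 12.3-fold (3.83 to 63.1). With quantile normalization the Raji-4RH value was -0.02 and was not called (limma adjusted p = 0.844).

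CCL17, the other CCR4 ligand, lies about 46 kb from CCL22 at 57404767 to 57416062. It had 6 and 9 reads in Raji DMSO, 44 and 52 in Raji chidamide (3.44 and 4.03 FPKM), 2 and 0 in Raji-4RH DMSO, and 1 and 1 in Raji-4RH chidamide. The rise in Raji was 1.56 on the log2 scale, or 6.16-fold in reads (3.56 to 11.4). The counts of Raji-4RH were at or under 3 in each group and give no fold. The difference between the lines was -3.46 for CCL22 (limma adjusted p = 6.8e-07) and -1.54 for CCL17. It depended on the scale for both, since the voom fit on reads gave -1.14 (adjusted p = 0.17) and -1.80 (adjusted p = 0.211). What differed in reads without this dependence was the end level: treated Raji-4RH cells held 122-fold fewer CCL22 reads than treated Raji cells (85.6 to 181.5).

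**Figure D2:**
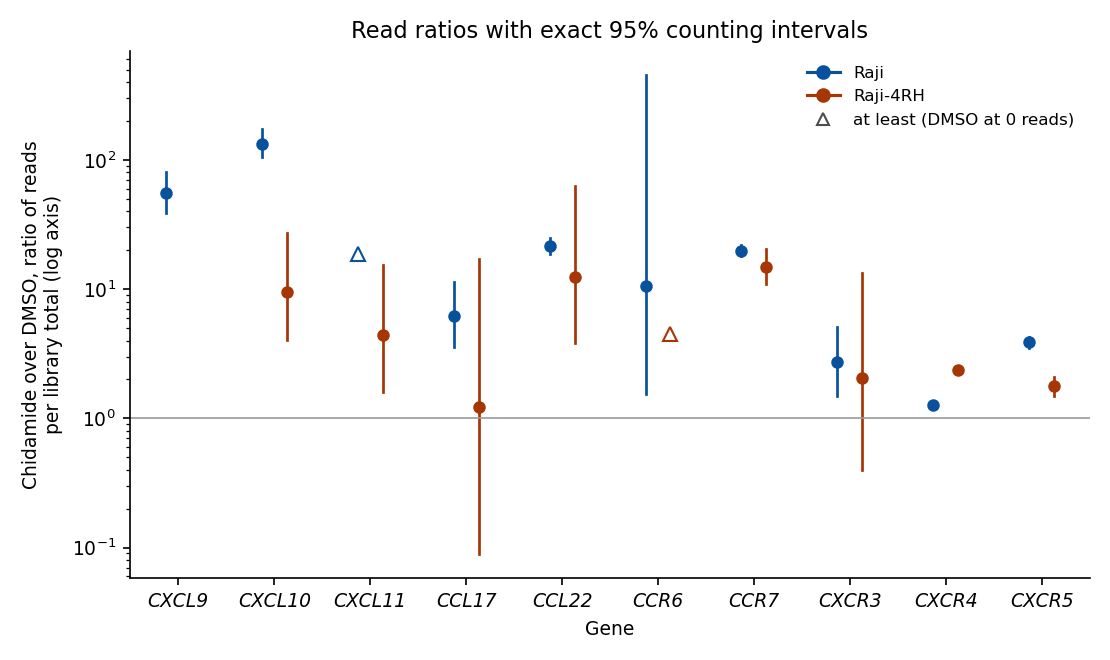
Ratio of reads per library total, chidamide over DMSO, for each gene and line on a log axis, with exact 95% intervals that cover counting error only. Open triangles, where DMSO had 0 reads over the group, are ratios with DMSO set to 3 reads and leave out counting error. CXCL9 in Raji-4RH, with 3 reads against 0, is not drawn. The intervals of the 2 lines are far apart for CXCL10 and overlap for CCL22 and CCR7.

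CCR7, the lymph node homing receptor, on chromosome 17 from 40553769 to 40565472 on the minus strand, had the largest rise of the tested receptors in both lines on the log2 scale. It stood at 3.69 and 3.58 FPKM in Raji DMSO, at 69 and 75.4 FPKM in Raji chidamide, at 0.489 and 0.433 FPKM in Raji-4RH DMSO and at 6.44 and 6.99 FPKM in Raji-4RH chidamide. No group overlapped another, and treated Raji-4RH cells stood above untreated Raji cells, a pair that was not tested, which was not so for CXCL10 or CCL22. The rise was 3.98 on the log2 scale in Raji (limma adjusted p = 1.1e-08) and 2.40 in Raji-4RH (limma adjusted p = 4.0e-08). In reads the ratios were 19.9 (17.9 to 22.1) and 14.7 (10.9 to 20.3). The difference of -1.58 between the lines (limma adjusted p = 1.1e-05) was smaller with a pseudocount of 0.1 (-0.67, limma adjusted p = 0.00272), and in the voom fit it was -0.46 ± 0.292 (SE) with an adjusted p of 0.229. The lines therefore differed in the level of CCR7 before and after treatment, while the difference in relative response was not called in reads.

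CXCR4, the CXCL12 receptor, on chromosome 2 from 136114349 to 136118165, was the most abundant of the 10 genes in untreated cells. It stood at 66.2 and 69.1 FPKM in Raji DMSO, at 89.8 and 82.6 FPKM in Raji chidamide, at 61 and 62.3 FPKM in Raji-4RH DMSO and at 137.3 and 151.1 FPKM in Raji-4RH chidamide. The groups did not overlap, but the untreated lines were not called different (-0.13, limma adjusted p = 0.105), although they were with only their own 4 libraries in the fit (limma adjusted p = 0.0293). CXCR4 rose by 0.34 on the log2 scale in Raji (limma adjusted p = 0.00222, read ratio 1.27) and by 1.21 in Raji-4RH (limma adjusted p = 8.2e-07, read ratio 2.35). The larger rise in Raji-4RH was called, at 0.87 (limma adjusted p = 1.8e-04), and the voom fit gave the same value (adjusted p = 2.9e-05).

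CXCR5, the follicle homing receptor, on chromosome 11 from 118883766 to 118897799, has exons that overlap those of BCL9L on the other strand. Whether counting used strand is not given in the sources used here, so reads of the 2 genes may not be separated. It stood at 2.81 and 2.9 FPKM in Raji DMSO, at 11 and 11.1 FPKM in Raji chidamide, at 1.17 and 1.38 FPKM in Raji-4RH DMSO and at 1.81 and 2.62 FPKM in Raji-4RH chidamide. The rise was 1.65 in Raji (limma adjusted p = 7.2e-06) and 0.49 in Raji-4RH (limma adjusted p = 0.00367), and the difference was -1.16 (limma adjusted p = 5.5e-04; voom -1.15, adjusted p = 0.00156). The groups did not overlap. The Raji-4RH value was 0.30 without Raji-4RH chidamide replicate 2, and with quantile normalization it was -0.02 (limma adjusted p = 0.91).

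CXCR3 and CCR6, the receptors of the CXCL9 group and of CCL20, were near the limit of detection. CXCR3, on chromosome X from 71615916 to 71618517, had 6 and 10 reads in Raji DMSO, 24 and 21 in Raji chidamide, 2 and 1 in Raji-4RH DMSO, and 2 and 3 in Raji-4RH chidamide. Its read ratio was 2.71 (1.5 to 5.13) in Raji and 2.05 (0.4 to 13.2) in Raji-4RH, where a change was not detectable at this depth. CCR6, on chromosome 6 from 167111807 to 167139696, shares exon sequence positions with the transcript Z94721.2 on the same strand. It had 0 and 1 reads in Raji DMSO, 6 and 5 in Raji chidamide, 0 and 0 in Raji-4RH DMSO, and 4 and 7 in Raji-4RH chidamide. The read ratio was 10.6 (1.54 to 455.8) in Raji. With untreated Raji-4RH set to 3 reads over the group, CCR6 was 4.52-fold higher in treated Raji-4RH. The exact interval, from the 0 reads counted, began at 3.09-fold.

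**Figure D3:**
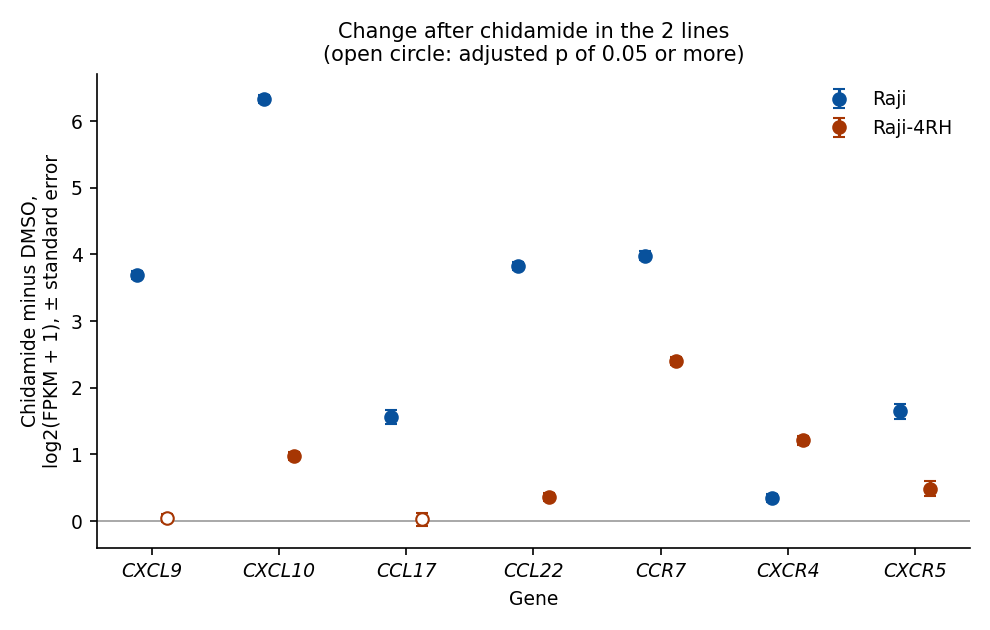
Chidamide minus DMSO on the log2(FPKM + 1) scale, with standard errors, for the 7 genes that passed the filter, with Raji and Raji-4RH side by side. Open circles were not called. CXCR4 is the only gene of the 7 whose Raji-4RH point, at 1.21, lies above its Raji point, at 0.34.

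Without drug, 6 of the 7 tested genes were lower in Raji-4RH than in Raji and CXCR4 was not called, where 32.4% of all genes tested were called lower, 41.2% higher and 73.6% in either direction. CCL22 was 70.1-fold lower in reads (23.7 to 342.7), CXCL10 11.7-fold lower (5.11 to 32.9), and CCR7 7.92-fold lower (5.82 to 11). CXCL9 was 10.3-fold lower with Raji-4RH set to 3 reads over the group. Its exact interval, from the 0 reads counted, began at 7.925-fold. CXCR5 was 2.23-fold lower (1.90 to 2.62). For the difference of the chidamide effects, 6 of the 7 genes were lower and CXCR4 was higher in Raji-4RH, where 21.7% of all genes tested were called lower, 27.2% higher and 48.8% in either direction. Among chidamide-treated cells, 6 were lower and CXCR4 was higher in Raji-4RH than in Raji, where 35% of all genes tested were called lower, 44.3% higher and 79.3% in either direction. These comparisons share libraries, so their counts are not separate evidence. CXCL9 and CCL17 are counted in each although they passed the filter only through treated Raji.

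The ligands CXCL12, CXCL13, CCL19, CCL20 and CCL21 and the receptor CCR4, which pair with these genes, were nearly absent. CXCL12, the ligand of CXCR4, had 0 reads in all 8 libraries. CXCL13 had 6 reads in all, CCL19 had 3, CCL21 had 2 and CCL20 had 9, and CCR4, the receptor of CCL17 and CCL22, had 5. CXCR4 was thus abundant in all 8 libraries without transcripts of CXCL12. CXCL10 and CCL22 were abundant in treated Raji only, where CXCR3 had 45 reads and CCR4 had 0.

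Of 46 chemokine ligands listed, 35 were placed, 8 of these had 0 reads and 8 were tested. After chidamide, 6 of the 8 were higher and none lower in either line, and the median change was 1.16 in Raji and 0.97 in Raji-4RH, beside 0.017 and 0.093 for all genes tested. With quantile normalization 5 were higher in Raji-4RH. Of all genes tested, 31.5% were called higher in Raji and 43.3% in Raji-4RH. Of the 8 ligands, only CXCL10 and CCL22 reached 1 FPKM without drug. The others passed the filter through treated libraries alone. The filter therefore tilts the counts and medians of the ligands upward, and they do not show a rise of the family. The tested ligands outside the 10 genes were CCL24, CCL26, CXCL8 and CXCL16. The first 3 of these reached 1 FPKM in the treated Raji-4RH libraries only, so they could enter the test only through the group in which they were high, and their levels are given without a p-value. CCL24, an eosinophil attractant, had 0 reads in Raji and stood at 0.163 FPKM in untreated and 4.32 FPKM in treated Raji-4RH. CCL26, a related eotaxin, had 44 reads in the treated Raji-4RH libraries and 0 in every other group. CXCL8, the neutrophil attractant, stood at 0 and 0.477 FPKM in untreated and treated Raji and at 0.559 and 2.04 FPKM in untreated and treated Raji-4RH. CXCL16, the ligand of CXCR6, rose by 0.76 in Raji and by 1.06 in Raji-4RH. It too was under 1 FPKM without drug and entered the test only through treated libraries, so no p-value is given.

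Of 23 chemokine receptors listed, 22 were placed and 7 were tested, with 6 higher and 1 lower in Raji and 6 higher and none lower in Raji-4RH (4 higher and 1 lower with quantile normalization). Of all genes tested, 60% were called in Raji and 74.9% in Raji-4RH, in either direction. The median changes were 0.56 and 1.21. CX3CR1 and CCR10 entered only through treated libraries and ACKR4 only through untreated Raji, so the filter shaped these counts and medians. CX3CR1, the fractalkine receptor, rose from 0.212 to 4.8 FPKM in Raji (2.26) and from 0.145 to 3.65 FPKM in Raji-4RH (2.02). It entered the test only through treated libraries, in which it was high, so no p-value is given. CCR10, which reached 1 FPKM in the treated Raji-4RH libraries only, stood at 0.0379 and 0.534 FPKM in untreated and treated Raji and at 0.287 and 2.05 FPKM in untreated and treated Raji-4RH. ACKR3, a scavenging receptor for CXCL12, rose by 0.41 in Raji and 0.36 in Raji-4RH, at levels that were 3.19 FPKM in untreated Raji and 0.0118 FPKM in untreated Raji-4RH, where the rise was 0.04 and not called with quantile normalization. ACKR4, which scavenges CCL19 and CCL21, reached 1 FPKM in the untreated Raji libraries only. It stood at 4.57 and 0.924 FPKM in untreated and treated Raji and at 0.225 and 0.312 FPKM in untreated and treated Raji-4RH.

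**Figure D4:**
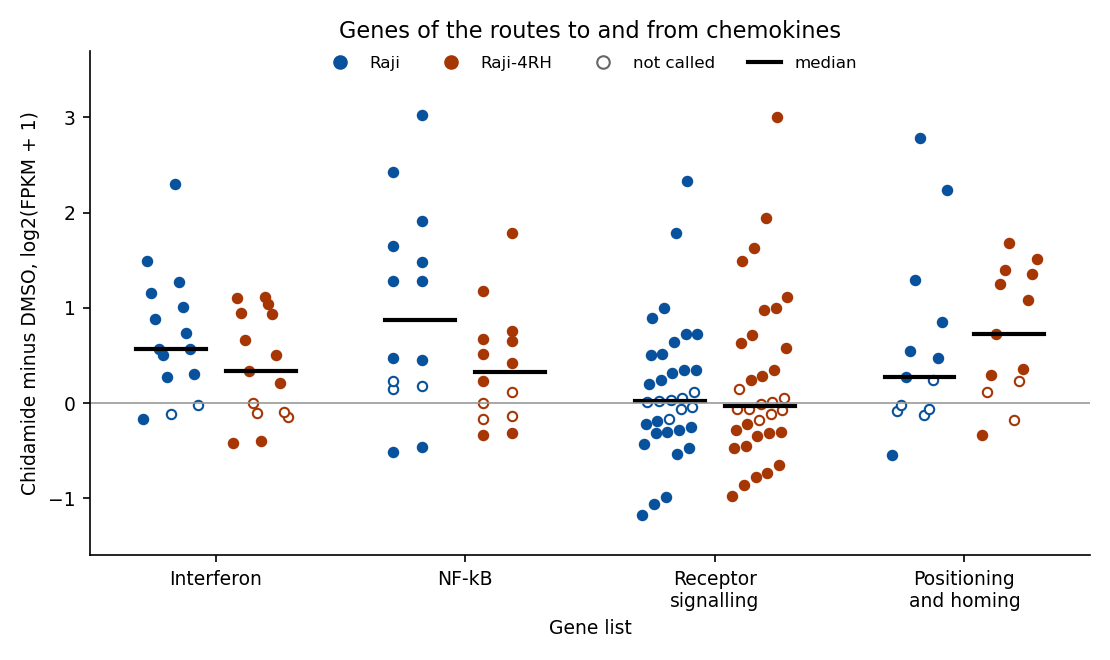
Chidamide minus DMSO on the log2(FPKM + 1) scale for each tested gene of 4 lists in both lines, with black bars at the medians and open circles for genes not called. The interferon and NF-kB medians were 0.57 and 0.87 in Raji and 0.34 and 0.32 in Raji-4RH.

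Genes of the interferon route, which leads to CXCL9, CXCL10 and CXCL11, were tested for 15 members. In Raji 12 were higher and 1 lower, with a median of 0.57, and in Raji-4RH 9 were higher and 2 lower, with a median of 0.34, beside the same 0.017 and 0.093 for all genes tested. The shares called over all genes tested, 60% in Raji and 74.9% in Raji-4RH, are to be read beside these counts and those of the lists that follow, and the Raji-4RH counts are near that share. In Raji, SOCS1, a feedback inhibitor of interferon signalling, rose by 1.49 and the kinase TYK2 by 1.27, while in Raji-4RH SOCS1 rose by 0.94 and TYK2 was at 0.00 (limma adjusted p = 0.971). The kinase JAK1, the transcription factor IRF1 and the interferon gamma receptor chain IFNGR1 rose by 1.11, 1.10 and 1.04 in Raji-4RH and by 1.01, 0.88 and 1.16 in Raji. Neither JAK1 nor IRF1 nor IFNGR1 differed in response between the lines at the threshold (limma adjusted p = 0.336, 0.0964 and 0.399). IRF3 fell by 0.42 in Raji-4RH and by 0.17 in Raji (-0.05 and not called with quantile normalization), and IFNGR2 fell by 0.40 in Raji-4RH and rose by 0.27 in Raji.

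Of the NF-kB route to CCL17, CCL22 and CCR7, 14 genes were tested. In Raji 9 were higher and 2 lower, with a median of 0.87, and in Raji-4RH 8 were higher and 2 lower, with a median of 0.32, where 60% and 74.9% of all genes tested were called. TNFAIP3, a target and inhibitor of NF-kB also known as A20, rose by 3.02 in Raji, from 2.72 to 29.1 FPKM, and by 1.79 in Raji-4RH, from 1.87 to 8.93 FPKM (limma adjusted p = 4.9e-08 and 1.2e-07). TRAF1, an adaptor protein, rose by 2.43 in Raji and 0.52 in Raji-4RH, and NFKBIA, which encodes the inhibitor of NF-kB alpha, by 1.91 and 0.65. For TNFAIP3, TRAF1 and NFKBIA the response was lower in Raji-4RH, with differences of -1.23, -1.90 and -1.27 (limma adjusted p from 1.9e-05 to 3.6e-05). BIRC3 and CD40 rose by 1.18 and 0.76 in Raji-4RH and by 1.28 and 1.65 in Raji. STAT6 fell by 0.51 in Raji and rose by 0.42 in Raji-4RH, a difference of 0.93 (limma adjusted p = 2.9e-05). ICAM1 rose by 1.28 in Raji and fell by 0.34 in Raji-4RH, a difference of -1.62 (limma adjusted p = 1.8e-05). TNFRSF13C fell by 0.46 in Raji and NFKB1 fell by 0.32 in Raji-4RH, while their values in the other line, -0.14 and 0.15, were not called.

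Among 34 tested genes of receptor signalling and desensitisation, 14 were higher and 12 lower in Raji, and 13 were higher and 12 lower in Raji-4RH, where 60% and 74.9% of all genes tested were called. The medians of 0.02 and -0.03 changed sign with the scaling. The largest rise in both lines was that of RGS1, which shortens G protein signals below chemokine receptors. It rose from 0.45 to 6.3 FPKM in Raji (2.33) and from 1.03 to 15.2 FPKM in Raji-4RH (3.00). RGS1 needed treated libraries, in which it was high, to pass the filter. RGS2 and RGS16, of the same family, rose by 1.79 and 1.00 in Raji and by 1.49 and 1.63 in Raji-4RH. The G protein subunit gene GNG7 rose by 1.94 in Raji-4RH, from 8.55 to 35.7 FPKM, while in Raji its value was -0.22 (-0.10 and not called with quantile normalization). RGS13, a germinal center member of the family, fell by 0.99 in Raji and by 0.98 in Raji-4RH. RASGRP2 and the receptor kinase GRK2 fell by 1.18 and by 1.06 in Raji, and by 0.65 and by 0.74 in Raji-4RH. CORO1A and GNA13 fell by 0.86 and by 0.78 in Raji-4RH, and by 0.47 and by 0.54 in Raji. GRK2 was at 76.7 FPKM in untreated Raji and at 8.99 FPKM in untreated Raji-4RH.

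Other genes of B cell positioning and homing were tested for 13 members, with 7 higher and 1 lower in Raji and 9 higher and 1 lower in Raji-4RH, where 60% and 74.9% of all genes tested were called. EBI3, which was counted in this list but encodes a cytokine subunit and not a homing receptor, rose by 2.78 in Raji and by 1.51 in Raji-4RH. CD69, which holds lymphocytes in tissue, rose by 2.24 in Raji and by 1.25 in Raji-4RH, CNR2 by 1.29 and 1.08, and the integrin chain ITGB7 by 0.85 and 1.40. The integrin chain ITGA4 fell by 0.55 in Raji and by 0.34 in Raji-4RH. CD69 was at 0.629 FPKM in untreated Raji and at 0.834 FPKM in untreated Raji-4RH. It passed the filter only through treated libraries, in which it was high.

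The neighbours of the chemokine genes did not move with them by the same amount. Of 7 tested genes within 500 kb of the CXCL10 start that are not among the 10, 4 were higher and 1 lower in Raji, with changes from -0.16 (G3BP2) to 0.58 (SHROOM3). In Raji-4RH 3 were higher and 2 lower, from -0.59 (NUP54) to 1.43 (ODAPH). Over all genes tested, 60% and 74.9% were called. Around CCL22, 13 tested neighbours ranged from -0.40 (POLR2C) to 1.93 (DOK4) in Raji and reached 1.97 (DOK4) in Raji-4RH, so that DOK4 had values of 1.93 and 1.97 beside 3.83 and 0.36 for CCL22. The genes named in these ranges are the extremes and were chosen after their values were seen. SHROOM3, ODAPH and DOK4 had means under 1 FPKM without drug in both lines and needed treated libraries to pass the filter. The counts of higher genes and the upper ends of the ranges are therefore tilted upward.

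**Figure D5:**
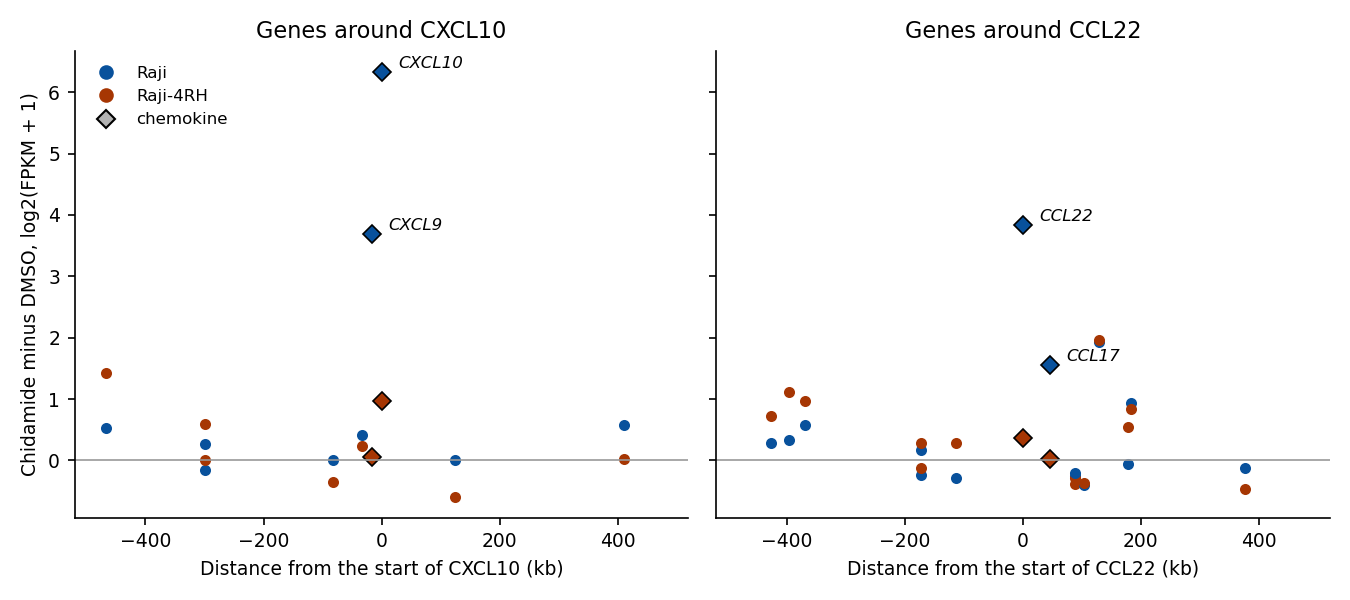
Chidamide minus DMSO on the log2(FPKM + 1) scale for tested genes against the distance of their start from that of CXCL10 or CCL22, in kb, with diamonds for the chemokines. In Raji, CXCL10 (6.33), CXCL9 (3.69) and CCL22 (3.83) lie above all tested neighbours. The highest of these are 0.58 around CXCL10 and 1.93 (DOK4) around CCL22, and CCL17 (1.56) lies below DOK4. SHROOM3, ODAPH and DOK4, like CXCL9 and CCL17, needed treated libraries to pass the filter. In Raji-4RH, CXCL10 (0.97) and CXCL9 (0.05) lie below ODAPH (1.43), and CCL22 (0.36) and CCL17 (0.02) lie below DOK4 (1.97).

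The genes with the most similar pattern were sought for the 3 genes of the 10 with the highest mean level, among 6614 genes whose mean was 5 FPKM or more, over the 8 libraries, by the root mean square difference of log2(FPKM + 1) after each gene was centred. For CXCR4 they were PHF21A (0.0816) and KRCC1 (0.0853), for CXCL10 they were CCL22 (0.967) and CCR7 (1.19), and for CCR7 they were SGK1 (0.321) and DUSP5 (0.555). The 8 libraries form 4 pairs of replicates, so these values compare 4 group levels and carry no test.

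Summed markers of other cell types were low and were higher after chidamide in both lines. The summed level of the 5 placed myeloid markers was 1.03 to 1.05 FPKM in Raji DMSO, 9.73 in both Raji chidamide libraries, 0.917 to 0.991 in Raji-4RH DMSO and 9.8 to 10.7 in Raji-4RH chidamide, and LYZ, CSF1R and ITGAM reached 1 FPKM in at least 2 libraries. The 4 dendritic cell markers summed to 0.0265 to 0.0606, 1.54 to 1.59, 4.88 to 5.79 and 7.47 to 8.97 FPKM in the same order, with CD1C and LAMP3 at 1 FPKM. The 5 placed T cell markers, of which CD3E reached 1 FPKM, summed to 0.0937 to 0.134, 0.861 to 1.11, 0.862 to 1.01 and 4.87 to 5.51 FPKM, and the 4 NK cell markers, of which NKG7 did, to 1.32 to 1.65, 2.7 to 3.66, 1.61 to 2.14 and 4.96 to 6.19 FPKM. No placed marker of these lists had 0 reads in all libraries. The part of these markers in the changes of the chemokines was not tested, and in bulk RNA a change in the number of cells that make a transcript and in the amount per cell cannot be told apart.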

How the data were processed

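The values that the authors deposited are FPKM, in a single table with gene lengths. The submitters' processing notes name HISAT2 2.0.5, SAMtools 1.7, HTSeq 0.9.1 and DESeq2 1.22.2 and the build GRCh38; libraries were made with a NEBNext Ultra kit, and the strand setting of counting is not given in the sources used here. FPKM times gene length and library total gave whole reads for 100.0% of values (tolerance 0.02). The last 662 of 63967 rows repeat the first 662, so labels outnumber values and stand up to 14 rows above them in 12 blocks. Values were taken from the row where they stand and rescaled by gene length, for 18143 labels and 90.7% to 93.2% of the reads. As a check, labels of genes silent in B cells had at least 100 reads in 1.24% of cases when placed and in 53.5% in the row of the label. Coordinates are those of GENCODE v29.

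Differences were tested with limma 3.58.1 in R 4.3.3 (a linear model with moderated variances and a trend) on log2(FPKM + 1), computed here from the deposited values, for genes at 1 FPKM or more in 2 or more libraries. Calls needed an adjusted p-value (Benjamini-Hochberg) under 0.05. An exact permutation test of 2 libraries against 2 cannot go below a two-sided p of 0.333 and was not used. The scripts were tested on simulated data. Read ratios carry exact 95% intervals, and a group with 0 reads was set to 3 reads. Python 3.11.15 with pandas 2.3.3, numpy 2.4.6, scipy 1.17.1 and matplotlib 3.10.9 was used.

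The 10 genes and the lists were chosen with earlier results of these data known. Named genes are the 10, every tested chemokine ligand and receptor, the ligands and receptors that pair with the 10, at most 3 called rises and 3 called falls of the other lists per line, and the 2 genes nearest in pattern to the 3 most abundant. Replicates with the same number did not deviate together (correlations of -0.279 to 0.166), so no pairing was used. The alternatives tried were median-centred samples, quantile normalization, 2 other filters, limma without trend, a pseudocount of 0.1, limma voom on the recovered reads, only the libraries compared, a replicate block, the rows as deposited and each library left out. A crossed block and the labels that share a row with their values were added after the data were seen. Some genes that this rule names are not reported here.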

Additional observations from a re-analysis of the deposited data

Results flagged for a closer look

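The chidamide effect differed between the lines for each of the 7 tested genes, by the interaction term of the limma fit on log2(FPKM + 1). Raji-4RH minus Raji was -3.64 for CXCL9, -5.36 for CXCL10, -1.54 for CCL17, -3.46 for CCL22, -1.58 for CCR7, -1.16 for CXCR5 and 0.87 for CXCR4. Among all genes tested, 48.8% differed in the same test. CCL17, CCL22 and CCR7 did not pass the threshold in the voom fit on reads. CXCL9 and CCL17 entered the test only through treated Raji, the group in which they were high.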

How the results depend on the processing

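Of 645 alternative values for single genes, 625 kept their direction and their side of the threshold, 10 changed sign, 6 newly passed and 4 no longer passed. With quantile normalization, Raji-4RH chidamide against DMSO gave -0.02 for CCL22, -0.02 for CXCR5 and -0.16 for CCL17, and 3 of the 10 genes were called in place of 5. That setting moved the median change of all genes in Raji-4RH from 0.0929 to -0.0219, and the called genes from 4642 higher and 3380 lower to 3718 higher and 4057 lower. Without a filter 67.9% of called genes were higher, beside 57.9%. With median-centred samples CXCL9 was -0.03 and CCL17 -0.05 in Raji-4RH, and leaving out 1 library at a time gave -0.09 to 0.14 for CCL17, the lowest without Raji-4RH DMSO replicate 2. The 2 genes were not called in these fits or the main one. CXCL9 in Raji-4RH, at 3 reads against 0, was called with a pseudocount of 0.1 (0.41) and in voom (2.28). The fall of CXCR4 in untreated Raji-4RH passed the threshold with median-centred samples (-0.18), with only the libraries compared, and without either Raji-4RH chidamide library. In the voom fit, 4 of the 10 genes differed in response between the lines in place of 7; the 3 lost were CCL17 (-1.80), CCL22 (-1.14) and CCR7 (-0.46).

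In the rows as deposited, where the label of a shifted gene stands beside another gene's values, CXCL9 was -0.61 in Raji-4RH, 0.01 in Raji and 0.15 between untreated lines, and CXCL10 was 1.19 for the difference and 0.33 between treated lines. Among only the labels that share a row with their values, 4331 genes were tested. In Raji-4RH 3326 genes and 3 of the 10 were called, in Raji 2702 and 4, for the difference 2178 and 4, between untreated lines 3258 and 3, and between treated lines 3463 and 4. Fewer genes were tested in this setting by construction.

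The replicate block called 7886 genes in Raji-4RH, 6183 in Raji, 4915 for the difference, 7748 between untreated lines and 8397 between treated lines, and changed no call among the 10 genes. With the replicate numbers of Raji DMSO exchanged, 8037 genes were called between untreated lines. Depth limits CXCL11, CCR6, CXCR3, CXCL9 and CCL17 in Raji-4RH, which rest on 0 to 18 reads per group there.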
